A study of Mus musculus with 6 samples.

Results

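Small nucleolar RNAs (snoRNAs) were examined in myoepithelial cells grown from exorbital lacrimal glands of mice, and 73 snoRNA genes were measured among 22180 named genes. The members were chosen by symbol: a probe set had to carry exactly 1 gene symbol that begins with Snora or Snord followed by a digit. This gave 26 H/ACA (Snora) genes and 47 C/D box (Snord) genes on 75 probe sets. Snora33 and Snora19 have more than 1 probe set. The mean over the 6 arrays chose that of Snora33, and those of Snora19 held identical values. The family was taken up with earlier results of these arrays known, among them that Snora34 had the smallest p of all genes.

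The cells came from female mice, either TSP1 null (3 arrays) or wild-type C57BL/6J (3 arrays). TSP1 is thrombospondin-1, the matrix glycoprotein encoded by Thbs1, and the study uses the null mouse to compare dry eye disease with health. The labels name the null strain TSP1 null, spelled TSP1-1 in the sample titles, with no genetic background, and give no age. Both groups were grown for about 2 to 3 weeks in serum-containing medium with no treatment. Trizol-extracted total RNA, 150 ng per sample, was hybridised to Affymetrix mouse Gene 2.0 ST arrays. The titles describe the 3 arrays of a group as biological replicates but tie none of them to its own animal or culture. The p-values therefore reflect array-to-array spread, which may be technical.

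snoRNAs are short RNAs of the nucleolus that guide chemical modification of other RNAs, chiefly ribosomal RNA. H/ACA snoRNAs guide the conversion of uridine to pseudouridine by the enzyme dyskerin, and C/D snoRNAs guide methylation of the ribose by fibrillarin. A few, such as the U3, U8, U17 and U22 RNAs, take part in cutting or folding the ribosomal precursor. In mammals most snoRNAs lie in introns of a host gene and are trimmed out of the excised intron, so that a snoRNA and its host share a promoter.

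Values are log2 signals after the authors' normalization across arrays, and a difference is TSP1 null minus wild type, so that -1 means a signal lowered to 0.5 of its level. Array medians lay between 5.25 and 5.32. Thbs1, the targeted gene, measured 12.73 to 13.03 on the null arrays and 13.51 to 13.75 on the wild-type arrays, a difference of -0.68 (SE 0.13); the labels do not say where its probes lie relative to the disruption. Acta2, the smooth muscle actin of myoepithelial cells, measured 13.85 to 14.01 on all 6 arrays, while the basal epithelial markers Krt14 (4.93 to 6.35) and Trp63 (4.47 to 4.93) were dim. Krt14 differed by 0.89 and Trp63 by 0.27, each with every null array above every wild-type array. They were the only 2 of 10 measured contractile and basal epithelial markers with such groups (10.1% of all genes). The median difference of the 10 was 0.17, with 7 above 0 and 3, Acta2 among them, below 0. The 8 fibroblast markers ran from 5.72 (Lum) to 13.53 (Col1a1) and had a median difference of 0.28. Of them 4 had null arrays above all wild-type arrays (10.1% of all genes): Col3a1 (1.03), Col1a1 (0.54), Col1a2 (0.51, and 0.32 with averaged probe sets) and Pdgfrb (0.32). Another 3 of the 8 had differences below 0, all with overlap: Lum (-1.05, SE 0.99), Dcn (-0.55, SE 0.32) and Thy1 (-0.15, SE 0.17). The part of these markers in the snoRNA differences was not tested. Macrophage markers were present and uneven: the mean over 19 of them was 9.40, 10.23 and 7.65 on null arrays 1 to 3 and 10.06, 10.70 and 10.87 on wild-type arrays 1 to 3. In such mixed cultures, fewer cells of a type and less RNA per cell cannot be told apart.

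Most snoRNA genes had a lower mean signal in the TSP1 null cultures, and the lowest differences belonged to the H/ACA class. The difference was below 0 for 52 of the 73 genes, with a median of -0.17, where 44.9% of all genes tested were below 0 and their median was 0.02. Of the 26 H/ACA genes 21 were below 0 (median -0.28), and of the 47 C/D genes 31 were below 0 (median -0.11). A drop to 0.5 of the wild-type level or less was measured for 4 snoRNA genes (Snora34, Snora44, Snora15 and Snora69), all H/ACA, and for 1.11% of all genes tested. At least 1.5-fold lower were 10 snoRNA genes (2.78% of all genes), and 0 were at least 1.5-fold higher (1.41% of all genes).

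No snoRNA gene passed an adjusted p of 0.05 in limma's moderated test over all 22180 genes (0 of 73, percent called over all genes 0%). At an unadjusted p under 0.05 there were 13 snoRNA genes, all with lower signals in the null group, where 4.27% of all genes were lower and 6.28% higher by the same measure. They were 7 H/ACA and 6 C/D genes, and 0 snoRNA genes were higher. In 8 snoRNA genes every null array lay below every wild-type array, against 5.75% of all genes, and in 0 every null array lay above, against 10.1% of all genes. The count of 13 was 8 without the third null array (2.80% of all genes lower) and 21 without the second wild-type array (4.03% of all genes lower). Higher snoRNA genes appeared without the second null array (1, beside 9 lower) and without the third wild-type array (2, beside 8 lower). Without the second null array 12.3% of all genes had an unadjusted p under 0.05, and 5.57% were lower by that measure. Without the third wild-type array these shares were 8.22% and 3.075%. The median difference of the H/ACA genes was -0.10 without the second null array, -0.19 without the third wild-type array and -0.46 without the first null array. That of the C/D genes was -0.04 without the third wild-type array.

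**Figure D1:**
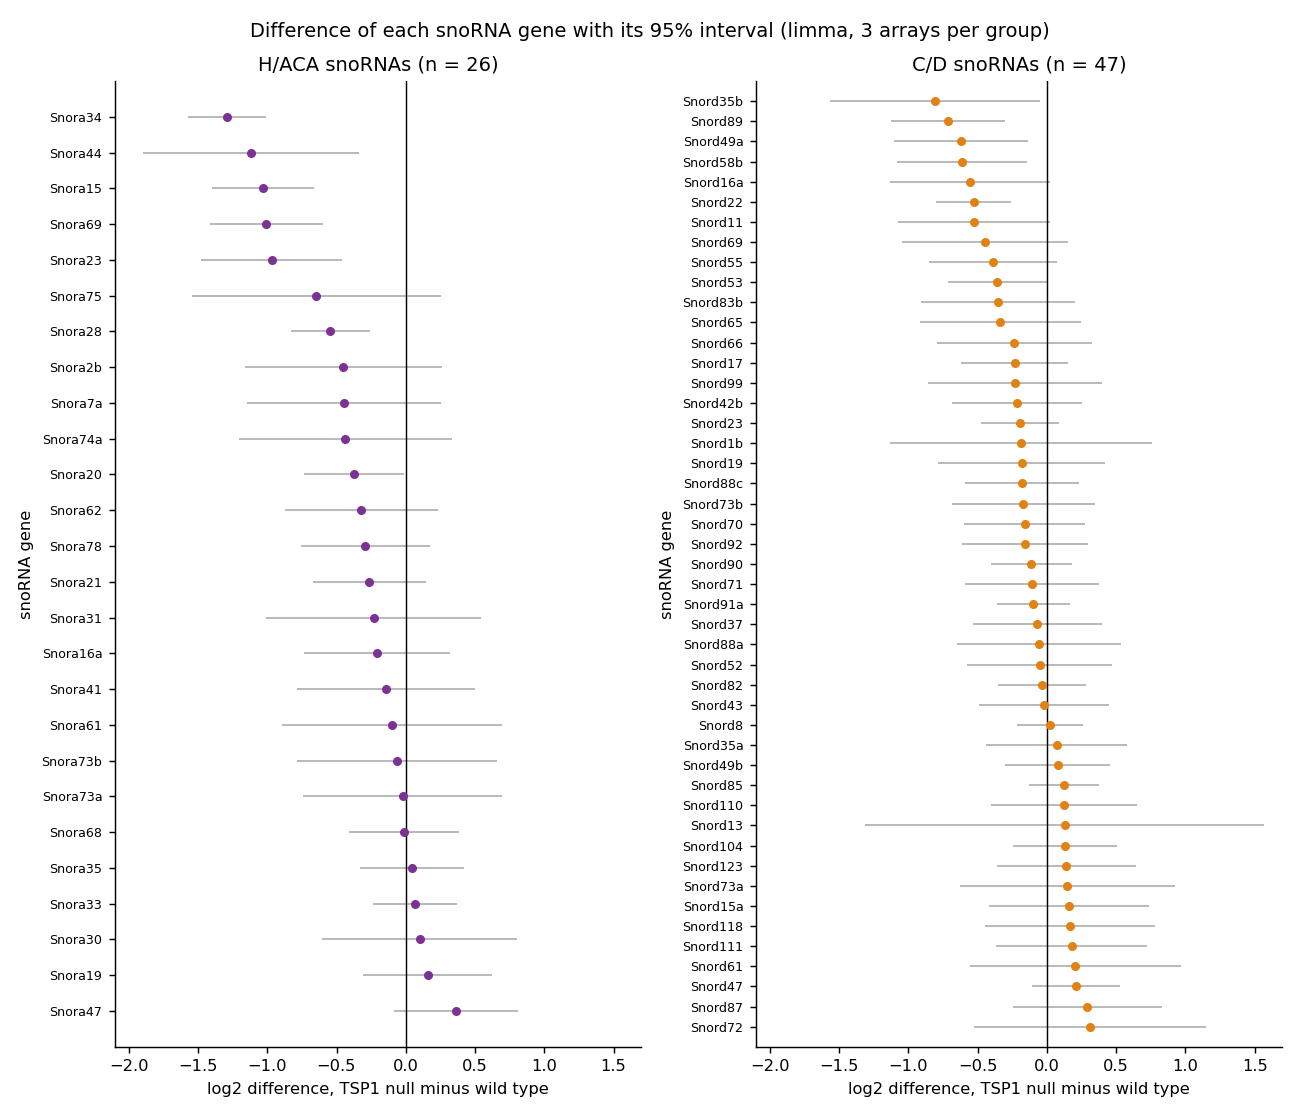
Log2 difference (TSP1 null minus wild type, x axis) of each snoRNA gene (y axis), H/ACA on the left and C/D on the right, with limma's 95% interval as a grey line. Points left of 0 number 21 of 26 for H/ACA and 31 of 47 for C/D, and the H/ACA panel reaches further down, to -1.29 for Snora34 against -0.81 for Snord35b.

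Snora34 had the largest difference of the family. Its signals were 10.04, 9.79 and 9.74 on the null arrays and 11.07, 11.21 and 11.16 on the wild-type arrays. The highest null array lay 1.03 below the lowest wild-type array, and within each group the arrays were close (SD 0.16 and 0.07, n = 3 each). The difference was -1.29 (SE 0.12, 2.45-fold lower), with an adjusted p of 0.161 in limma over all genes. Among all alternatives tried it passed only without the second null array, where the limma adjusted p was 0.0455 at a difference of -1.26, and over the alternatives that p ran from 0.0455 to 0.583. With any 1 array left out the difference ran from -1.38 to -1.23. Its lowest array, the third null array, was also the lowest for all 19 macrophage markers, whose part in the difference was not tested.

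Snora15 and Snora69 followed with separated groups. Snora15 measured 8.14, 8.03 and 7.82 on the null arrays and 8.98, 8.80 and 9.29 on the wild-type arrays. Its difference was -1.03 (SE 0.16, limma adjusted p = 0.194). Snora69 measured 7.31, 6.91 and 7.10 against 8.20, 7.79 and 8.35. Its difference was -1.01 (SE 0.18, limma adjusted p = 0.213), and the highest null array stayed below the lowest wild-type array for each of them.

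Snora23 and Snora28 were the remaining H/ACA genes without overlap. Snora23 measured 11.00, 10.16 and 10.33 on the null arrays and 11.31, 11.62 and 11.46 on the wild-type arrays. The first null array lay 0.31 below the lowest wild-type array and the other null arrays lay further down. The difference was -0.97 (SE 0.22, limma adjusted p = 0.29). Snora28 measured 8.02, 7.77 and 8.04 against 8.41, 8.44 and 8.61, a difference of -0.55 (SE 0.12, limma adjusted p = 0.29).

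Snora44 had a large difference with overlapping groups. It measured 9.07, 8.06 and 8.12 on the null arrays and 9.68, 8.96 and 9.96 on the wild-type arrays, so that the first null array was above the second wild-type array. The difference was -1.11 (SE 0.34, limma adjusted p = 0.354). Snora20 was dim, at 4.41 to 5.17, and differed by -0.38 (SE 0.16). Snora75 differed by -0.65 (SE 0.39) and rested on 1 array: the second wild-type array read 7.61, the other 5 between 5.57 and 6.48, and without that array the difference was -0.21.

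Among the H/ACA genes with positive differences Snora47 had the largest, 0.36 (SE 0.19), with 8.26, 7.92 and 8.57 on the null arrays and 8.03, 7.62 and 8.003 on the wild-type arrays. The U17 RNAs Snora73a and Snora73b, which take part in cutting the precursor of 18S ribosomal RNA, differed by -0.02 (SE 0.31) and -0.06 (SE 0.31). The 95% interval for Snora73a ran from -0.74 to 0.70, so changes of that size in either direction were not detectable. Its arrays spread widely within a group, from 8.15 to 9.33 in the null group. Snora21, with bright signals of 10.14 to 10.79, differed by -0.26 (SE 0.17).

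**Figure D2:**
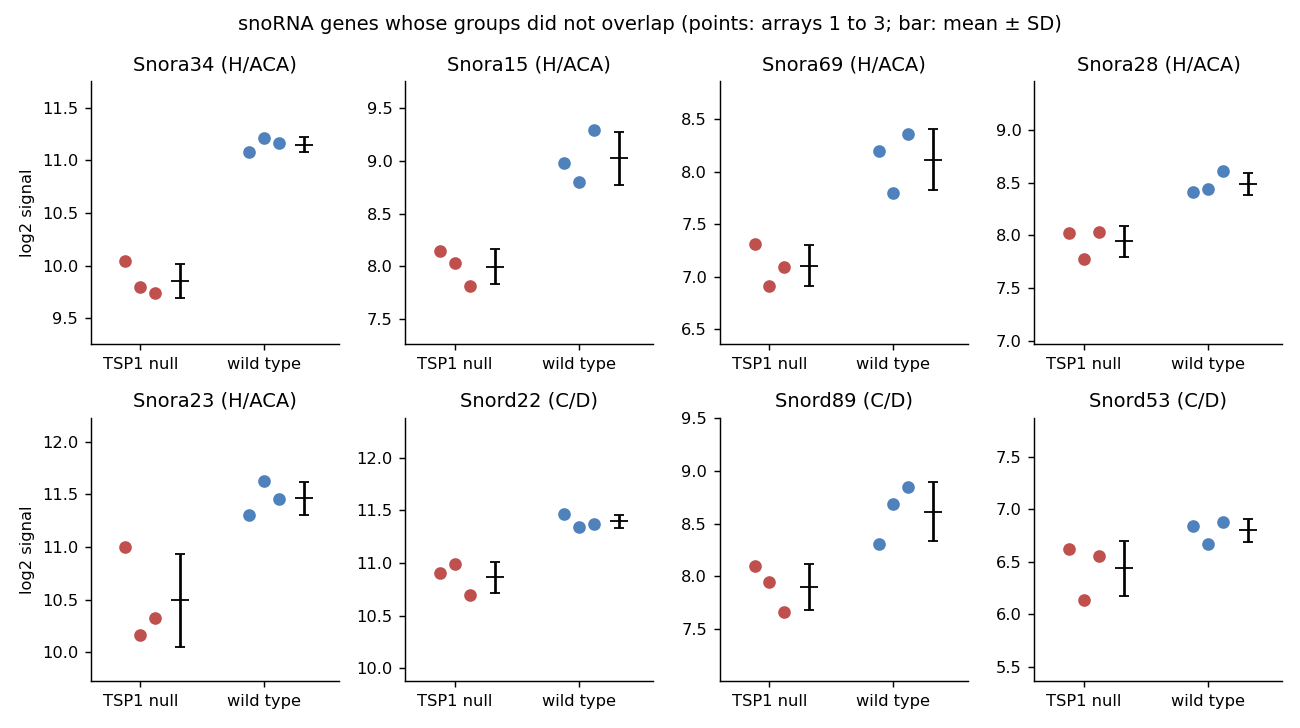
Log2 signal (y axis) of the 8 snoRNA genes whose groups did not overlap, for the TSP1 null (red) and wild-type (blue) arrays 1 to 3 from left to right, with the mean and SD as a black bar; each panel spans the same 2.5 log2 units. In every panel the 3 null arrays lie below the 3 wild-type arrays, and the gap is widest for Snora34. The groups' separation chose these genes and is a description.

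In the C/D class the differences were smaller. Snord22, the U22 RNA needed to process 18S ribosomal RNA, measured 10.91, 10.99 and 10.70 on the null arrays and 11.46, 11.34 and 11.37 on the wild-type arrays. It differed by -0.53 (SE 0.12, limma adjusted p = 0.29), and the arrays of each group were close. Snord89 measured 8.10, 7.94 and 7.66 against 8.31, 8.68 and 8.85, a difference of -0.72 (SE 0.18, limma adjusted p = 0.313). Snord53 measured 6.62, 6.14 and 6.55 against 6.84, 6.67 and 6.88, with no overlap and a difference of -0.36 (SE 0.15). These were the C/D genes with separated groups.

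Snord35b, Snord49a and Snord58b also had an unadjusted p under 0.05, with overlap. Snord35b measured 6.97, 6.55 and 6.51 on the null arrays and 7.95, 6.68 and 7.82 on the wild-type arrays, a difference of -0.81 (SE 0.33). Its second wild-type array lay among the null arrays. The same array was the lowest of its group for Snord49a (10.70, 9.96 and 10.37) and for Snord58b (8.87, 8.35 and 8.98), whose differences were -0.62 (SE 0.21) and -0.61 (SE 0.20). Snord11, Snord16a, Snord55 and Snord69 differed by -0.53, -0.56, -0.39 and -0.45, and in each of them the second wild-type array was again the lowest of its group.

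The largest positive differences among C/D genes were those of Snord72 (0.31, SE 0.36), Snord87 (0.29, SE 0.23) and Snord47 (0.21, SE 0.14), all with overlap. With 1 array left out the difference of Snord72 ran from 0.07 (without the second wild-type array) to 0.71 (without the third). Snord47, which lies in the growth arrest gene Gas5, measured 11.26 to 11.65 on the null arrays and 11.14 to 11.33 on the wild-type arrays. Snord35a, of the Rpl13a cluster known from work on lipid-induced cell stress, differed by 0.07 (SE 0.22). Bright signals with small differences were those of Snord82 (11.96 to 12.36, difference -0.04, SE 0.14), Snord49b (11.24 to 11.70, difference 0.08, SE 0.16) and Snord99 (11.32 to 12.29, difference -0.23, SE 0.27).

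The U8 and U13 RNAs lie in no other gene of the annotation. Snord118, the U8 RNA needed for the large ribosomal subunit, measured 6.70, 6.83 and 6.76 on the null arrays and 7.03, 5.93 and 6.83 on the wild-type arrays (difference 0.16, SE 0.26). Snord13, the U13 RNA that helps the acetylation of 18S ribosomal RNA, measured 8.08, 9.85 and 9.05 on the null arrays and 8.07, 10.20 and 8.33 on the wild-type arrays. It had the widest spread within groups of all 73 genes (SD 1.04) and a difference of 0.13 (SE 0.62). It was highest in each group on the second array, whereas 33 of the 47 C/D genes were lowest of the wild-type group there. Snord1b had the next widest spread (SD 0.67) and a difference of -0.19 (SE 0.41).

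The arrays differed among themselves in their snoRNA signals, and the classes did so differently. With each gene set to its mean over the 6 arrays, the median H/ACA gene was 0.18, -0.55 and -0.19 in null arrays 1 to 3. In wild-type arrays 1 to 3 it was -0.03, 0.21 and 0.38. For the median C/D gene these values were 0.07, -0.17 and -0.17, then 0.08, -0.19 and 0.26. The groups overlapped in both classes, since the first null array lay above the first wild-type array for H/ACA genes and above the second for C/D genes. Over all genes tested these medians lay between -0.02 and 0.02.

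The second null array was the lowest of the 6 for 16 of 26 H/ACA genes and for 9 of 47 C/D genes, against 13.8% of all genes. The third null array was the lowest for 16 of 47 C/D genes and 5 of 26 H/ACA genes, against 14.0% of all genes. The second wild-type array was the lowest for 14 of 47 C/D genes and 3 of 26 H/ACA genes, against 18.8% of all genes. The third wild-type array was the lowest for 0 of 73 snoRNA genes, against 14.0% of all genes, and the highest for 27, against 14.6% of all genes. The median spread within groups was 0.33 for the snoRNA genes (SD), against 0.17 for all genes tested. Restricted to genes with a mean signal of 8 or more it was 0.31 for 40 snoRNA genes and 0.17 for 5643 genes.

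**Figure D3:**
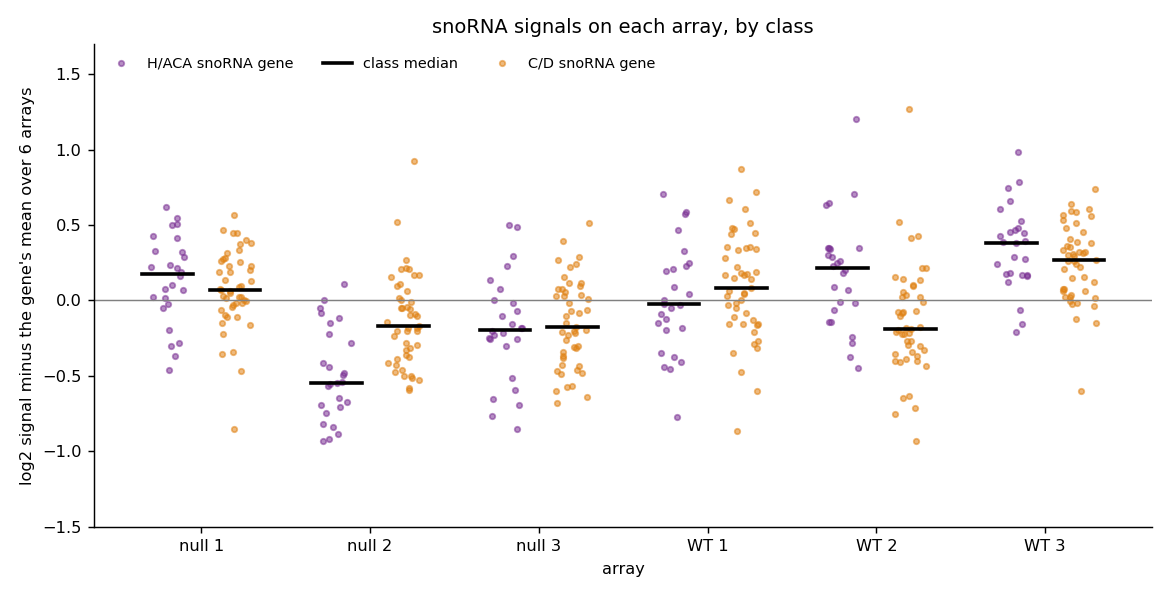
Log2 signal minus the gene's own mean over the 6 arrays (y axis) for each H/ACA (purple) and C/D (orange) snoRNA gene on each array (x axis), with the class median as a black line. H/ACA genes are lowest on null array 2 (median -0.55) and the classes part on wild-type array 2, at 0.21 for H/ACA and -0.19 for C/D.

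Markers of dividing cells also differed between arrays. The mean log2 signal of 7 of them was 8.42, 7.54 and 8.34 on null arrays 1 to 3 and 9.15, 8.06 and 9.13 on wild-type arrays 1 to 3, lowest in each group on the second array. All 7 had negative differences, from -1.05 to -0.43, against 44.9% of all genes below 0. All 7 were lowest on the second null array, against 13.8% of all genes. Mki67, a protein of dividing nuclei, differed by -1.03 (SE 0.29, limma adjusted p = 0.338). All 19 macrophage markers had negative differences (median -1.44), against 44.9% of all genes. Of the 19, 14 had an unadjusted p under 0.05, where 4.27% of all genes were lower by that measure, and 0 passed over all genes. All 19 macrophage markers were lowest on the third null array, against 14.0% of all genes. So were 21 of the 73 snoRNA genes, Snora34 and Snora15 among them. Without that array Cd68 differed by -0.84 in place of -1.59, Ptprc by -1.06 in place of -1.84 and Tyrobp by -0.97 in place of -1.71. The part of either list in the snoRNA differences was not tested.

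Dim signals were few among the members. Of the 73 genes 63 lay above the array's median on all 6 arrays, with a median difference of -0.19, and the other 10 had a median of -0.11. The 10 dim genes were Snora19, Snora20, Snora2b, Snord19, Snord37, Snord85, Snord88a, Snord90, Snord91a and Snord92. The choice of probe set mattered for 1 gene. Snora33 was read at 12.79 to 13.10 by the probe set used (difference 0.06) and at 5.76 to 7.06 by the other (difference -0.20). The probe sets of Snora19 held identical values. Levels of different snoRNAs are not ranked here, because probe sets differ in how strongly they bind.

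Host genes were next compared with the snoRNAs inside them. Hosts were taken from the RefSeq gene table (assembly GRCm38.p6) as the gene that contains the snoRNA, without regard to strand, which the table does not give. All 73 members were found there. A host was assigned to 65 of them, 5 lay inside more than 1 gene and 3 (Snord13, Snord89 and Snord118) inside none. The 65 lie in 51 different hosts, 18 of them in ribosomal protein genes, and 55 had a host measured by a probe set annotated to it alone (41 hosts). Where these host probe sets lie was not checked. Rpl37, Rpl39 and Rpl17 had means of 5.62, 5.68 and 6.62, and the other measured ribosomal protein hosts 10.53 (Rpl3) or more. The 18 snoRNAs in ribosomal protein genes had a median difference of -0.24, with 13 below 0, and the 16 in noncoding hosts a median of -0.14, with 12 below 0. Whether the probes of a snoRNA also bind the unspliced host transcript was not tested.

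The differences of the host genes lay around 0. The median difference of the 41 hosts was 0.05, 22 above 0 and 19 below, and 0 passed over all genes (smallest limma adjusted p 0.335). They ran from -0.37 (Snx5) to 0.46 (Nop53). At an unadjusted p under 0.05, 2 hosts were lower and 4 higher (4.27% and 6.28% of all genes). Every null array lay below every wild-type array in 2 hosts and above in 5 (5.75% and 10.1% of all genes). The snoRNA had a lower difference than its host in 41 of 55 cases, 19 of 23 for H/ACA and 22 of 32 for C/D. The median of the snoRNA difference minus the host difference was -0.48 for H/ACA and -0.16 for C/D. Across the 55 cases the differences of snoRNA and host had Pearson r = -0.14 and Spearman rho = -0.08, as a description, since all points come from the same 6 arrays and several share a host. Of the 11 snoRNA genes with an unadjusted p under 0.05 and a measured host, the host difference was above 0 in 6.

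**Figure D4:**
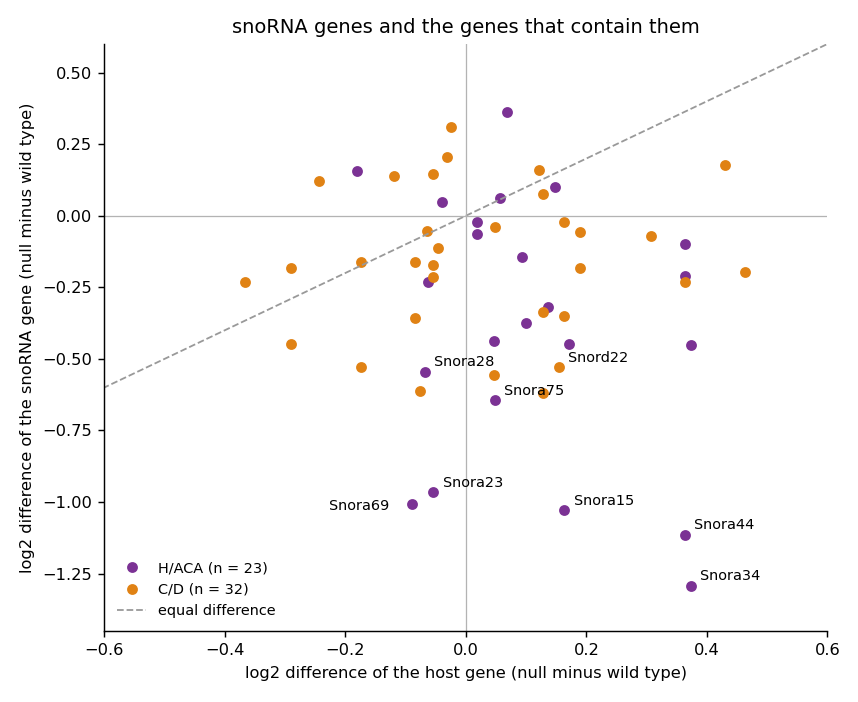
Log2 difference of each snoRNA gene (y axis) against that of the gene that contains it (x axis) for 55 snoRNAs, H/ACA in purple and C/D in orange; the dashed line marks equal differences. Points below the line number 41 of 55, and the lowest, Snora34, Snora44, Snora15, Snora69 and Snora23, have hosts between -0.09 and 0.37.

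Snora34 lies in Kansl2, a subunit of a histone acetyltransferase complex. Kansl2 measured 8.65, 8.36 and 8.47 on the null arrays and 8.27, 8.19 and 7.89 on the wild-type arrays, a difference of 0.37 (SE 0.14) in the direction opposite to its snoRNA, with no overlap. With its probe sets averaged the Kansl2 difference was 0.22. The second snoRNA of Kansl2, Snora2b, was dim and differed by -0.45 (SE 0.31), with 5.42, 4.56 and 5.67 against 5.25, 5.79 and 5.97. Snora15 lies in Cct6a, a chaperonin subunit (difference 0.16, SE 0.14), Snora69 in the ribosomal protein gene Rpl39 (-0.09, SE 0.12, at dim signals of 5.56 to 5.89), Snora28 in the translation factor gene Eif5 (-0.07, SE 0.12) and Snora23 in the nuclear import gene Ipo7 (-0.05, SE 0.11). Snord22 lies in the noncoding gene Snhg1, whose difference was 0.15 (SE 0.24).

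The noncoding gene Snhg12 holds 4 of the members, and their differences were unequal. Snora44 differed by -1.11, Snord99 by -0.23 (SE 0.27), Snora16a by -0.21 (SE 0.23) and Snora61 by -0.10 (SE 0.34), a range of 1.01 within 1 host. Snhg12 itself measured 8.15, 7.41 and 7.76 on the null arrays and 7.56, 7.16 and 7.52 on the wild-type arrays, a difference of 0.36 (SE 0.20). Snora16a measured 9.15, 9.004 and 8.90 against 8.68, 9.43 and 9.57, and its lowest array was the first wild-type array, where Snora44 read 9.68. Among 11 hosts with more than 1 measured snoRNA, this range was the widest, followed by Kansl2 (0.84), the noncoding gene 2410006H16Rik (0.69, between Snord49a and Snord49b) and Ncl (0.61, between Snora75 and Snord82). It was narrowest in Snhg3 (0.04, between Snora73a and Snora73b). Whether these snoRNAs differ from each other was not tested.

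**Figure D5:**
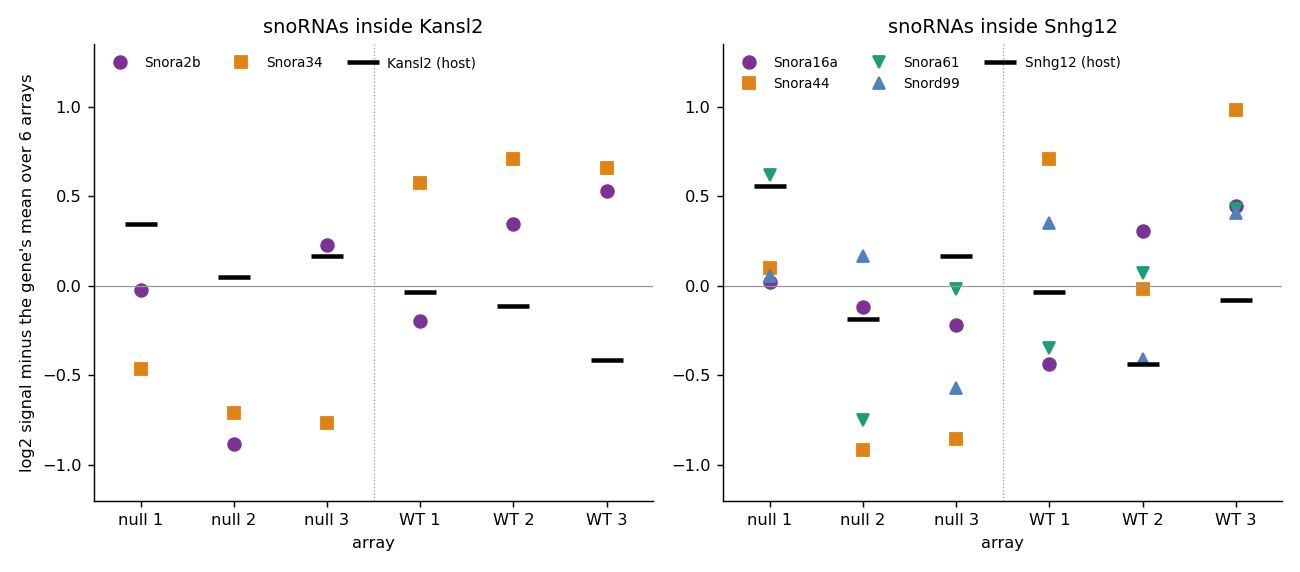
Log2 signal minus the gene's own mean over the 6 arrays (y axis) on each array (x axis) for the snoRNAs inside Kansl2 (left) and Snhg12 (right), with the host as a black bar; the dotted line parts null from wild type. Snora34 lies below 0 on all null arrays while Kansl2 lies above it there, and Snora44 is the lowest of the Snhg12 snoRNAs on null arrays 2 and 3.

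The start sites of the hosts of the leading H/ACA genes are shown because a snoRNA and its host are transcribed from the same promoter. Host genes of snoRNAs are known for starting in a run of pyrimidines (a 5′ terminal oligopyrimidine tract). The sequences run 5′ to 3′ on the transcribed strand, from 60 bases before to 20 bases after the start annotated by RefSeq (GRCm38.p6), and capitals mark a run of at least 5 C or T that comes within 5 bases of the start.
Kansl2 (Snora34), chr15:98534250-98534329, minus strand: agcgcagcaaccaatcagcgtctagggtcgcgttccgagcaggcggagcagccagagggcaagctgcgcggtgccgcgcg
Ipo7 (Snora23), chr7:110018255-110018334, plus strand: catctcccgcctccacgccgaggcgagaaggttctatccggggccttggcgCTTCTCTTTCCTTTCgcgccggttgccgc
Cct6a (Snora15), chr5:129787296-129787375, plus strand: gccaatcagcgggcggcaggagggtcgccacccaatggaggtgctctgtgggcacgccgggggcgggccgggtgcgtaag
Rpl39 (Snora69), chrX:37085203-37085282, minus strand: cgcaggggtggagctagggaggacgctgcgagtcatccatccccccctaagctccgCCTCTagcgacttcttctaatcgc
Snhg12 (Snora44), chr4:132308618-132308697, plus strand: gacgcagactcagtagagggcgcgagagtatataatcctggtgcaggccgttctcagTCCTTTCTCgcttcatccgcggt
Ipo7, Rpl39 and Snhg12 held such a run, of 15, 5 and 9 bases, and Kansl2 and Cct6a did not. Of the 41 hosts with a start in the RefSeq table, 20 held one (48.8%), against 35.1% of 27025 genes and 31.4% of 32851 start windows in the table, searched on the transcribed strand only. Hosts with large negative snoRNA differences thus occurred with and without the run.

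The proteins of the snoRNA particles were measured as well. Of 6 H/ACA particle genes 4 had negative differences, against 44.9% of all genes, and 0 passed over all genes. Dkc1, which encodes dyskerin, measured 7.62, 7.47 and 7.86 on the null arrays and 8.09, 7.83 and 8.36 on the wild-type arrays. The groups overlapped narrowly, and the difference was -0.44 (SE 0.17, limma adjusted p = 0.431). Gar1, a core subunit, differed by 0.41 (SE 0.21), and Naf1, which helps to assemble the particle, by -0.37 (SE 0.20). Without the third null array Gar1 differed by 0.17, and without the second wild-type array Naf1 differed by -0.16.

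Of the C/D particle genes 4 of 6 were measured, and 0 passed. The core proteins Nop56 and Nop58 differed by -0.24 (SE 0.16) and -0.17 (SE 0.15), and Rrp9, the U3-specific protein, by 0.26 (SE 0.14). Of 7 assembly factors measured (8 listed) 6 had positive differences, from 0.09 to 0.22, and 0 passed. Over all genes tested 12230 of 22180 had positive differences. Rpap3, Nufip1 and Ruvbl2 differed by 0.19, 0.22 and 0.20.

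Among 12 measured genes of snoRNA processing and transport 0 passed over all genes. Parn, a ribonuclease that trims the 3′ ends of H/ACA RNAs, measured 8.82, 8.63 and 8.92 on the null arrays and 8.36, 8.46 and 8.34 on the wild-type arrays. Every null array was above every wild-type array (10.1% of all genes), and the difference was 0.40 (SE 0.12, limma adjusted p = 0.347). Tgs1, which hypermethylates the cap of snoRNAs with genes of their own, differed by -0.38 (SE 0.17). For Tgs1 every null array was below every wild-type array (5.75% of all genes). Coil, the scaffold of Cajal bodies, differed by -0.28 (SE 0.15), or by -0.15 with averaged probe sets.

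The 20 genes of ribosome production had a median difference of 0.04, with 12 above 0, 8 below and 0 passing, and none had an unadjusted p under 0.05. Ubtf, the activator of RNA polymerase I, differed by 0.24 (SE 0.14), Npm1, an abundant nucleolar protein, by -0.19 (SE 0.13) and Pes1, a factor of the large subunit, by 0.27 (SE 0.19). The 17 measured noncoding host genes (21 listed) had a median of 0.05, with 12 above 0 and 0 passing. Snhg7 and Snhg15 differed by 0.29 (SE 0.18) and -0.21 (SE 0.13).

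Other short RNAs served as a comparison. The 483 microRNA genes had a median difference of 0.00, 25 lower and 17 higher at an unadjusted p under 0.05 (4.27% and 6.28% of all genes), and they were dim (median signal 4.28 against 8.16 for snoRNA genes). The 5 small Cajal body RNAs, guides of the same architecture that modify spliceosomal RNAs, had positive differences in 4 cases. So did 12230 of all 22180 genes tested. Scarna6 measured 9.73, 9.35 and 9.77 on the null arrays and 8.23, 8.59 and 8.78 on the wild-type arrays. It differed by 1.08 (SE 0.18, limma adjusted p = 0.194), opposite in direction to the leading snoRNAs and without overlap. The remaining members, Scarna2, Scarna8, Scarna10 and Scarna17, differed by 0.29, -0.45, 0.23 and 0.60, all with overlap. Whether small Cajal body RNAs and snoRNAs differ as groups was not tested.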

How the data were processed

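The deposited values are log2 signals for 41345 probe sets on each of 6 arrays. The authors made them with Partek and RMA, as the submitters' processing notes record; software versions and build: not given in the sources used here. RMA sets all arrays to 1 distribution, so a difference is relative to the other probe sets, and differences of dim probe sets are compressed. Probe sets were named from the platform annotation (23521 with 1 symbol, 1814 with several, 16010 with none); 43 with several symbols hold a snoRNA symbol and are described in the closing section. The probe set with the highest mean was kept per gene. Groups and replicate numbers came from the sample titles.

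The groups were compared with limma 3.58.1 (lmFit, eBayes, two-sided; R 4.3.3) on all 22180 genes, without covariates or filter, with Benjamini-Hochberg adjustment and a threshold of 0.05; SE is limma's, and SD is over 3 arrays. The procedure was tested on simulated data. The members and lists were chosen with earlier results of these data known. Named were Snora34; per class the 10 genes of smallest p, the 5 of highest mean and the 3 of largest SD; snoRNAs of known role; their hosts; and 3 genes of smallest p per list. Dim, positive, host-sharing and Scarna genes were added after their values were seen. Replicate numbers did not pair the arrays. Host start sequences are RefSeq's (GRCm38.p6). Figures used Python 3.11.15 with matplotlib 3.10.9.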

Additional observations from a re-analysis of the deposited data

How the results depend on the processing

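The count of snoRNA genes past an adjusted p of 0.05 was 0 in the reported fit and under quantile normalization, median centring, the filter on dim genes, averaged probe sets, array weights, an intensity trend with robust prior, the replicate block and all deposited probe sets, and ran from 0 to 1 with 1 array left out; over all genes it ran from 0 to 34. The count at an unadjusted p ran from 8 to 21 with 1 array left out. The H/ACA and C/D medians stayed below 0 in all 13 alternatives, from -0.46 to -0.10 and from -0.18 to -0.04 with 1 array left out. No paired design is stated: same-numbered arrays had correlations of -0.14, 0.18 and -0.16 in their deviations, and with the replicate block 14 snoRNA genes had an unadjusted p under 0.05, 13 lower and 1 higher, against 9.99% of all genes. Of 33 named snoRNA genes 23 kept their direction in every alternative run for them, 12 for Snora20, which the filter on dim genes removed, and 13 for the others. The difference moved by over 1.5 times for 21 of the 33 with 1 array left out, and for 9 of the 33 under another alternative. Of 47 other named genes, hosts and list members, 36 moved by over 1.5 times with 1 array left out. Median centring gave 2.67e-05 for Snord82, 0.0152 for Snora73a and 0.0134 for Rpl37. Averaging gave -0.0657 for Snora33 and -0.0456 for Tcp1. Array weights gave -0.00795 for Snord49b and -0.0416 for Snord35a. With 1 array left out, differences of genes that changed direction ran from -0.0012 to 0.16 (Snora33), -0.35 to 0.24 (Snora73b), -0.43 to 0.25 (Snora61), -0.28 to 0.31 (Snora73a), -0.12 to 0.0597 (Snord82), -0.0300 to 0.20 (Snord49b), -0.30 to 0.79 (Snord13), -0.70 to 0.0691 (Snord1b), -0.17 to 0.38 (Snord118), -0.11 to 0.25 (Snord35a), -0.0783 to 0.22 (Zbed3), -0.00818 to 0.12 (Ncl), -0.15 to 0.33 (Snhg3), -0.0112 to 0.40 (Snhg1), -0.0351 to 0.30 (2410006H16Rik), -0.21 to 0.0272 (Wdr43), -0.00525 to 0.11 (Rpl4) and -0.20 to 0.11 (Rpl37). The cause was not tested. With 3 arrays per group the median SE of a snoRNA difference was 0.22, against 0.14 over all genes.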

Other observations

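Probe sets that carry a snoRNA symbol beside other symbols were left out of the 73 genes, since their signal cannot be given to 1 gene. There were 43, and 16 of them, all of the Snord116 cluster that is imprinted in brain, held 1 and the same row of values, from 4.35 to 5.42. Of the other 27 probe sets 17 had differences below 0, against 44.9% of all genes tested, with a median of -0.19. Of these 27, 3 had groups that did not overlap with the null group lower, and 0 with it higher, against 5.75% and 10.1% of all genes tested. They were a probe set of Snora70 and its host Rpl10 (5.34, 4.78 and 4.24 against 7.15, 5.65 and 5.89, difference -1.44, SE 0.43), 1 of Snora36b and Mir664 (-0.89, SE 0.20, at dim signals of 3.12 to 4.48) and 1 of Snora5c and Tbrg4 (-0.55, SE 0.21). All 3 name an H/ACA RNA. Those of Snora3 (-0.34), Snora52 (-0.28), Snora81 (-0.28), Snora43 (0.08), Snora24 (0.11) and Snora17 also name 1, all with overlap. The 2 probe sets of Snora17 and its host Snhg7 differed by -0.79 (SE 0.31) and -0.59 (SE 0.30), with overlap. The Rpl13a cluster was read by probe sets of Snord32a, Snord33 and Snord34 with Rpl13a, which differed by 0.07, 0.06 and 0.00. These genes were chosen after their values were seen.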
